A study of Mus musculus with 20 samples.

Results

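The 6 core genes of caveolae were followed in subcutaneous fat pads of the groin (inguinal white adipose tissue, iWAT) taken from 20 female mice. They were taken by name from 36611 genes with a value. They are Cav1 and Cav2, Ptrf (now Cavin1), Sdpr (now Cavin2), Prkcdbp (now Cavin3) and Ehd2, and all 6 passed the filter on low values in every comparison. The older symbols of the annotation are used below. The floxed line had a C57BL/6 N Tac background and the Cre line a C57BL/6 J background. The mice were 6 months old, in 4 groups of 5 mice with 1 library each. Ad-Tmem120a-/- mice carried Tmem120a fl/fl alleles, with exons 2 and 3 floxed, and a Cre gene driven by the Adiponectin promoter, which is active in adipocytes. Control littermates were Tmem120a fl/fl without Cre. Each genotype was kept for 15 weeks on a diet with 10.5% fat (LFD, low fat) or with 58% fat (HFD, high fat). By the paper, the diets also differed in carbohydrate, which was higher and mainly corn starch in LFD and mainly sucrose in HFD. The paper also states that mice were fasted before dissection. The deletion is limited to adipocytes, whereas RNA came from the whole fat pad, so the other cells of the pad keep the gene.

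Caveolae are small flask-shaped pits of the plasma membrane that are very dense in adipocytes and are also frequent in endothelium and smooth muscle. Caveolin-1 and caveolin-2 insert into the inner leaflet of the membrane as a hairpin, and caveolin-1 is needed to form the pit outside striated muscle. The cavins are peripheral proteins that coat the bulb, with cavin-1 required for its formation, cavin-2 linked to membrane curvature and cavin-3 to the link with signalling and trafficking. EHD2 is an ATPase at the neck of the pit that holds it at the surface. In fat, caveolae are known as membrane reserves and as sites where fatty acids and insulin signals are handled.

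Cav2 and Cav1 lie next to each other on chromosome 6 of the assembly NCBIM37 (mm9), on the plus strand. Cav2 (ENSMUSG00000000058) spans chr6:17231185-17239115, and Cav1 (ENSMUSG00000007655) begins 17219 bases after it and spans chr6:17256335-17291452. Ptrf (ENSMUSG00000004044) lies at chr11:100818047-100832201 on the minus strand and Sdpr (ENSMUSG00000045954) at chr1:51345970-51359803 on the plus strand. Prkcdbp (ENSMUSG00000037060, chr7:112629121-112630711) and Ehd2 (ENSMUSG00000074364, chr7:16532326-16552916) are both on the minus strand of chromosome 7. RefSeq promoter windows (GRCm38.p6), reduced to the 250 bases before the start and placed on NCBIM37 by exact match, were found for 5 of the 6 genes. The 4 windows that hold no base of an annotated exon are shown, 5′ to 3′ on the strand of the gene, because Cav1 and Cav2 are neighbours, Cav1 has a pair of starts 1305 bases apart whose transcripts are followed below, and Sdpr is the cavin whose window is free of exon bases. Capitals mark matches on either strand to the TATA box (TATAAA), the CCAAT box or the GC box (GGGCGG).
Cav1, first start, chr6:17256085-17256334, plus strand: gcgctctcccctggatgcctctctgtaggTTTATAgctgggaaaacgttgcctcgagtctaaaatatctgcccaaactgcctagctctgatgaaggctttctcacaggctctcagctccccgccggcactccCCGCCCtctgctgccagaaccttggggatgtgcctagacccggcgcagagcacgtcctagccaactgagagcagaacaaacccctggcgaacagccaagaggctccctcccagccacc
Cav1, second start, chr6:17257390-17257639, plus strand: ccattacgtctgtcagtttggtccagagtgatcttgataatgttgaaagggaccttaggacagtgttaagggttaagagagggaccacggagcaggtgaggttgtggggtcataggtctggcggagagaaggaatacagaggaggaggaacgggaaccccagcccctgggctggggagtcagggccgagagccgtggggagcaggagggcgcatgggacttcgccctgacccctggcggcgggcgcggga
Cav2, chr6:17230935-17231184, plus strand: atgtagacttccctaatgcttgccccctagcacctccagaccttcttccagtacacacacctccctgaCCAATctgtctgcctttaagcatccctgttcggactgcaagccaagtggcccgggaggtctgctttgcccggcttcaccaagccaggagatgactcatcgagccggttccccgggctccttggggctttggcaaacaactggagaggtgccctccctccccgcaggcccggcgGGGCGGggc
Sdpr, chr1:51345720-51345969, plus strand: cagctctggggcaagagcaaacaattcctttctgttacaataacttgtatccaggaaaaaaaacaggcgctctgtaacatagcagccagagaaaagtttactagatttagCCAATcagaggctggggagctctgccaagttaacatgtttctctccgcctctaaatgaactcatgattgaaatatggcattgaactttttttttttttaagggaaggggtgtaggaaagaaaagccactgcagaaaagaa

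The 3 windows of Cav1 and Cav2 were rich in G and C (59.6%, 60.8% and 62.0%) and that of Sdpr was not (40.4%, against a median of 52.4% over 32851 windows of 250 bases). The search on both strands covered these 3 boxes, the direct repeat of AGGTCA with 1 base between the copies, the E-box (CACGTG) and the cAMP response element (TGACGTCA), and no matches overlapped. Before the first Cav1 start, a TATA box was found on the reverse strand at -221 and a GC box on the reverse strand at -118, counted from the start to the first base of the match. The window of the second Cav1 start held none of the 6 motifs. Cav2 had a CCAAT box at -182 and a GC box at -9, and Sdpr had a CCAAT box at -140. In the windows that are not shown, Ptrf had a CCAAT box at -63 and a GC box at -7, counted from the start of Ptrf-202. All 250 bases of that window lie in annotated exon, downstream of the start of Ptrf-001 at base 100832201. Ptrf-001 held nearly all of the TPM of Ptrf, so these boxes do not lie before the start of its main transcript. Ehd2 had a CCAAT box at -160 and a GC box at -226, in a window with 32 bases in annotated exon. Among all windows 12.4% held a TATA box, 33.8% a CCAAT box, 32.7% a GC box, 0.0335% the AGGTCA repeat, 6.02% the E-box and 1.55% the cAMP response element. No window of the 5 genes held any of the last 3 motifs.

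Each library held between 54605101 and 92387737 estimated counts, and the 6 genes were deeply covered, from 4167 counts of Prkcdbp to 181493 of Cav1 in a library. On HFD Tmem120a averaged 119 TPM in control littermates and 51.6 TPM in knockouts. TPM is a level scaled for transcript length and for the total of the library. On LFD the means were 85.4 and 41.5 TPM, and the ranges of the genotypes overlapped on both diets. The edgeR log2 difference of Tmem120a between genotypes was -1.67 on HFD (adjusted p 0.1729) and -1.61 on LFD (adjusted p 0.9293). The deleted gene was thus itself not called at the limit of 0.1 on either diet, so a gene without a genotype call may still differ. The defining markers of white adipocytes, endothelium, smooth muscle with pericytes, progenitors and macrophages were all detected. A total of 6 libraries had over 500 TPM of 8 skeletal muscle fibre markers, namely control LFD replicate 5 (2718 TPM), knockout LFD replicates 6 and 9 (529 and 856 TPM) and knockout HFD replicates 17, 19 and 20 (1203, 728 and 612 TPM). The results are therefore also given without them. Nothing in the labels names a batch.

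Cav1 was by far the most abundant of the 6 transcripts, at 817 ± 291 TPM on LFD in control littermates and 722 ± 133 TPM in knockouts, and at 1625 ± 89.9 and 1491 ± 376 TPM, in that order, on HFD (SD, n = 5 in each group, here and below). It made up 52.8% and 52.5% of the summed TPM of the 6 genes on LFD and 56.2% and 56.3% on HFD in the same order. Cav1 stood above Cav2 and Cav2 above Sdpr in 5 of 5 libraries of every group. Ehd2, Prkcdbp and Ptrf followed in that order of means on LFD, and Prkcdbp, Ptrf and Ehd2 on HFD. Neighbours in this order overlapped in range, apart from Cav1 with Cav2 in 3 groups, all but control LFD, and Cav2 with Sdpr in control HFD. The sum of the 6 genes was 1536 ± 512 TPM and 1369 ± 208 TPM on LFD and 2895 ± 178 and 2639 ± 622 TPM on HFD, in control and knockout mice. The libraries of control mice on HFD lay close together, with a coefficient of variation of 5.53% for Cav1 and 6.75% for Ptrf, whereas those of control mice on LFD had 35.6% and 26.6%.

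**Figure D1:**
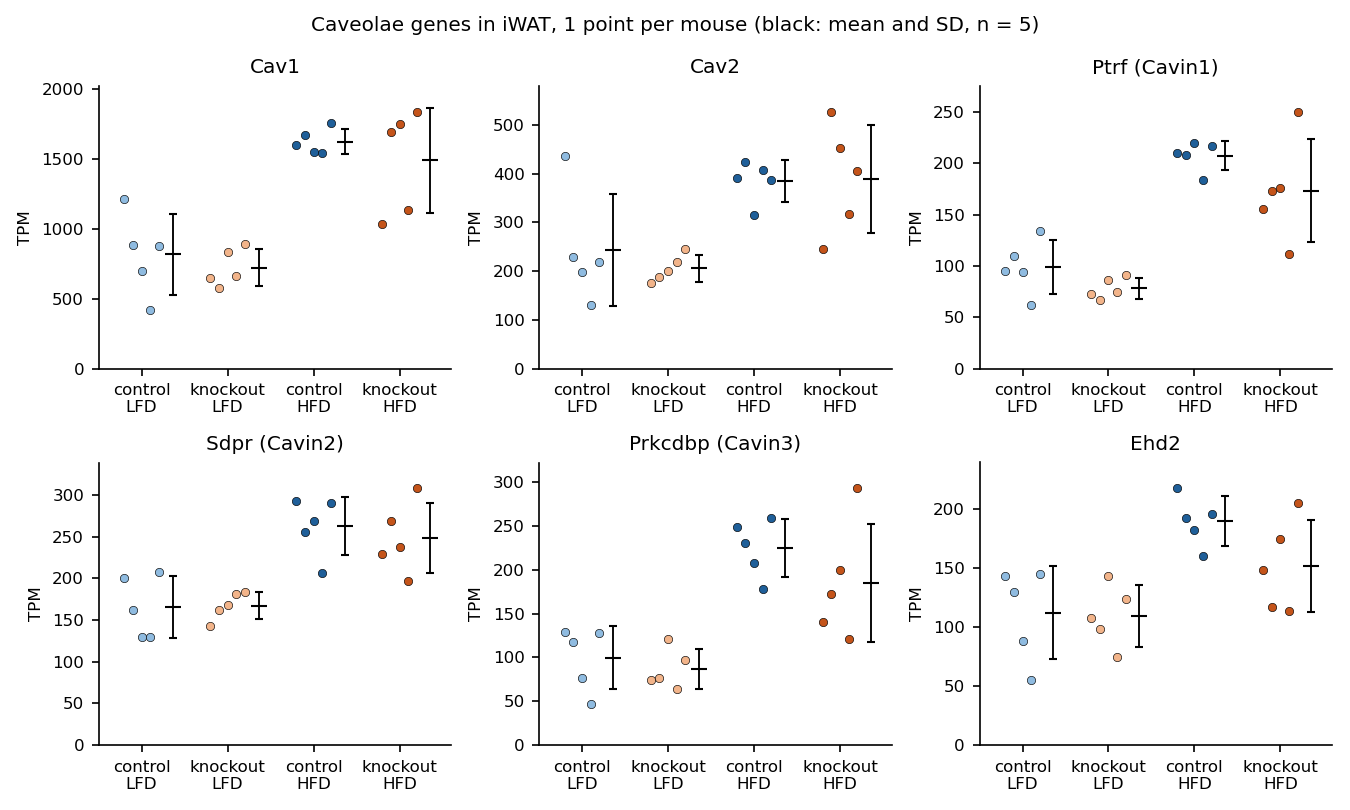
TPM of each of the 6 caveolae genes (y axes, starting at 0) in each of the 20 libraries, by group (x axis). Points are libraries and bars are group means with SD. Cav1 reached 1544 to 1758 TPM in control mice on HFD and 416 to 1211 TPM on LFD, and 1035 to 1839 TPM in knockout mice on HFD and 576 to 890.4 TPM on LFD.

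The first question was how the diet changed these genes in control littermates. Ptrf, Prkcdbp and Cav1 were higher on HFD, by 1.90-fold, 2.11-fold and 1.76-fold. Sdpr, Ehd2 and Cav2 did not pass the test there. Cav1 was measured at 1211, 884, 696.5, 416 and 877 TPM in replicates 1 to 5 on LFD and at 1600, 1672, 1552, 1544 and 1758 TPM in replicates 11 to 15 on HFD. Every HFD library lay above every LFD library. The log2 fold change from edgeR's quasi-likelihood test was 0.82 (SE 0.213, adjusted p 0.05103). Cav2, the partner of caveolin-1, was at 437, 229.6, 199, 130.5 and 218 TPM on LFD and at 392, 424, 314, 407.5 and 387 TPM on HFD. Control LFD replicate 1 exceeded all 5 HFD libraries, and the other LFD libraries lay below all of them. With that library the edgeR log2 fold change of Cav2 was 0.46 (95% interval -0.15 to 1.06, adjusted p 0.3875), and without it 0.82 (adjusted p 0.02819).

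Of the cavins, Ptrf was at 94.96, 109, 94.2, 61.95 and 134 TPM in control mice on LFD and at 210.2, 208, 219.7, 184 and 217 TPM on HFD. The groups were well apart, with a log2 fold change of 0.92 (SE 0.153, edgeR adjusted p 0.007226). Prkcdbp was at 129, 118, 76.5, 47.2 and 127 TPM on LFD and at 249, 231, 208, 178 and 259.5 TPM on HFD. These groups did not overlap either, and Prkcdbp had the highest log2 fold change of the 6 genes in control mice, at 1.08 (SE 0.225, edgeR adjusted p 0.02157). Sdpr was at 201, 162, 129.8, 129 and 207.6 TPM on LFD and at 293, 256, 269, 206.5 and 290.0 TPM on HFD. In 4 of 5 HFD libraries it lay above all LFD libraries, and its log2 fold change was 0.45 (95% interval 0.11 to 0.80, edgeR adjusted p 0.1261). Ehd2, at the neck, was at 143, 129.7, 88.3, 54.9 and 144 TPM on LFD and at 217, 192, 182, 159.8 and 196 TPM on HFD. Its groups did not overlap, and its log2 fold change was 0.68 (95% interval 0.17 to 1.19, edgeR adjusted p 0.1194).

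The same question in Ad-Tmem120a-/- mice gave 4 calls, with Ptrf 2.17-fold, Prkcdbp 2.09-fold, Cav1 1.86-fold and Cav2 1.74-fold higher on HFD. Cav1 was at 650.2, 576, 832, 659.6 and 890.4 TPM in knockout replicates 6 to 10 on LFD and at 1035, 1694, 1752, 1136 and 1839 TPM in replicates 17 to 21 on HFD. Replicates 17 and 20 were the low HFD libraries, yet both lay above every LFD library (log2 fold change 0.89, SE 0.198, edgeR adjusted p 0.02473). Cav2 was at 176, 187, 200.3, 219 and 245 TPM on LFD and at 246, 527, 452, 316 and 406 TPM on HFD. Its groups were separated by a narrow margin, with replicate 17 on HFD just above replicate 10 on LFD, and the log2 fold change was 0.80 (SE 0.225, edgeR adjusted p 0.05965).

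Ptrf in knockout mice was at 72.4, 66.9, 86.3, 74.8 and 91.0 TPM on LFD and at 155.5, 174, 176, 111.5 and 250.5 TPM on HFD. All HFD libraries were above all LFD libraries, with a log2 fold change of 1.12 (SE 0.198, edgeR adjusted p 0.007985). Prkcdbp was at 74.35, 76.9, 121, 63.5 and 97.45 TPM on LFD and at 140.2, 172.5, 199, 120.9 and 293 TPM on HFD. Only replicate 20 on HFD fell just under the highest LFD library, and the log2 fold change was 1.06 (SE 0.230, edgeR adjusted p 0.02211). Sdpr was at 142, 162, 168, 181 and 183 TPM on LFD and at 229.8, 268.5, 238, 197 and 308 TPM on HFD. Its groups did not overlap, although the log2 fold change of 0.44 (95% interval 0.12 to 0.75) had an edgeR adjusted p of 0.108. Ehd2 was at 107.6, 97.8, 143, 74.25 and 124 TPM on LFD and at 148, 117, 174, 113 and 205 TPM on HFD. In 3 of 5 HFD libraries it lay above all LFD libraries, and its log2 fold change was 0.48 (95% interval 0.08 to 0.88, edgeR adjusted p 0.1693).

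**Figure D2:**
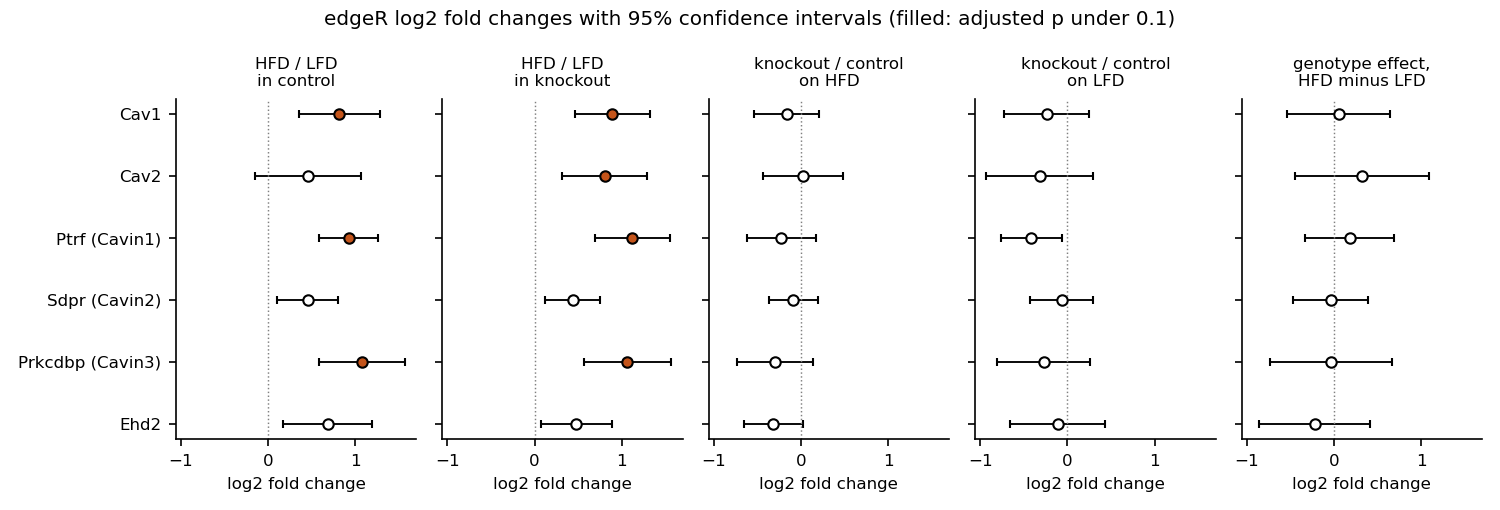
Log2 fold change (x axis) of the 6 caveolae genes from edgeR in the 2 diet comparisons, the 2 genotype comparisons and the difference between the genotype effects, with 95% intervals as bars and called genes filled. The 6 diet values lay between 0.45 and 1.08 in control and between 0.44 and 1.12 in knockout mice, and the intervals of the other panels included 0 except that of Ptrf for genotype on LFD.

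Among all genes tested, 9.32% of 15311 were called in control mice and 4.42% were called higher, against 3 of the 6 caveolae genes. In knockout mice 9.4% of 15705 genes were called and 4.55% were called higher, against 4 of the 6. All 6 values were positive in both comparisons, with a median log2 fold change of 0.75 against -0.04 for all genes in control and 0.85 against 0.00 in knockout mice. In two-sided exact permutation tests of log2(TPM + 1), 5 mice against 5, Cav1, Ptrf, Prkcdbp and Ehd2 in control and Cav1, Cav2, Ptrf and Sdpr in knockout mice reached 0.00794, the smallest p the design allows. Sdpr and Cav2 had exact p-values of 0.0159 and 0.0476 in control, and Prkcdbp and Ehd2 of 0.0159 and 0.0873 in knockout mice, unadjusted over 24 such tests. On the TPM scale the median over all genes shifted too: limma on log2(TPM + 1) gave 0.13 in control and 0.08 in knockout mice. In control mice limma split its calls into 1791 higher and 348 lower, against 676 and 751 by edgeR. It called all 6 caveolae genes in control and 5 of 6 in knockout mice, where the split was 1009 higher and 525 lower, against 714 and 762. HFD libraries lay wholly above LFD libraries in 8.32% of genes in control and 5.01% in knockout mice. Averaged over both genotypes in 1 fit, a contrast added after seeing the data, all 6 genes were called, beside 25.2% of 15574 genes called and 12.4% called higher. There the log2 fold changes were 1.08 for Prkcdbp, 1.02 for Ptrf, 0.86 for Cav1, 0.64 for Cav2, 0.59 for Ehd2 and 0.45 for Sdpr, with edgeR adjusted p-values from 1.271e-05 for Ptrf to 0.01926 for Cav2.

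**Figure D3:**
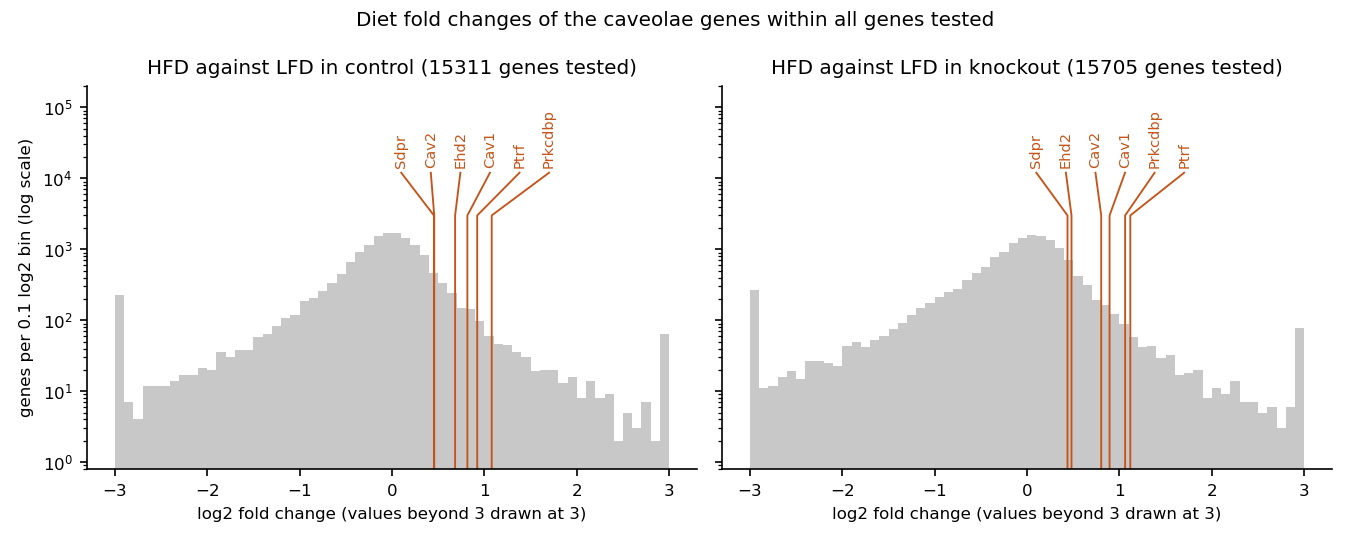
Number of genes per bin of 0.1 log2 units (y axis, log scale) by log2 fold change between HFD and LFD (x axis, values beyond 3 drawn at 3) among 15311 genes in control and 15705 genes in knockout mice. Lines mark the 6 caveolae genes, which all lay to the right of 0.

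Leaving out each library in turn, Ptrf and Prkcdbp were called in 10 of 10 fits of both diet comparisons. Cav1 was called in 5 of 10 fits in control and in 10 of 10 in knockout mice. Without control LFD replicate 1 all 6 genes were called in control mice, and 2 were called without control LFD replicate 2, 3 or 5 or control HFD replicate 12 or 15. The count over all genes moved too, from 1427 to 1845 without control LFD replicate 1, to 810, 873 and 868 without LFD replicates 2, 3 and 5, and to 780 and 967 without HFD replicates 12 and 15. Without the libraries rich in muscle fibre markers, an alternative added after seeing the data, 2 genes were called in control mice, beside 5.7% of all genes and 3.01% called higher. These were Ptrf (1.03, edgeR adjusted p 0.008528) and Prkcdbp (1.18, adjusted p 0.0269), while Cav1 kept a log2 fold change of 0.82 (adjusted p 0.1016). In knockout mice that left 3 libraries on LFD and 2 on HFD. None of the 6 genes was called by edgeR there, and 2 of 15670 genes were called at all (0.0128%). The log2 fold changes of the 6 genes remained positive, from 0.42 for Ehd2 to 1.33 for Ptrf.

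The next question was whether loss of Tmem120a in adipocytes changed these genes. On HFD none of the 6 was called, as against 0.00657% of 15228 genes (1 gene, with 709 at an unadjusted p under 0.05 and 100 called by DESeq2). The intervals bound the difference rather than show equal levels. Cav1 differed by -0.16 (95% interval -0.54 to 0.21) and Cav2 by 0.02 (-0.44 to 0.48) on the log2 scale. Ptrf differed by -0.22 (-0.62 to 0.17), and 4 of 5 knockout libraries lay below all control libraries while replicate 21 lay above them all. Sdpr differed by -0.09 (-0.37 to 0.19) and Prkcdbp by -0.30 (-0.73 to 0.13). With all libraries the lowest value was that of Ehd2, at -0.32 (-0.66 to 0.02), with 3 of 5 knockout libraries below all control libraries. All 6 edgeR adjusted p-values were 0.9993, and exact permutation p-values ran from 0.103 for Ehd2 to 0.952 for Cav2. Without knockout HFD replicate 21 the log2 differences were -0.50 for Prkcdbp, -0.39 for Ehd2 and -0.38 for Ptrf (unadjusted edgeR p 0.007399, 0.03129 and 0.03447). None was called there either (edgeR adjusted p 0.3311, 0.4585 and 0.4718), and 58 genes were called over the whole table.

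On LFD again none of the 6 was called, beside 0.00636% of 15717 genes (1 gene, with 803 at an unadjusted p under 0.05 and 17 called by DESeq2). Ptrf was the nearest to a call, with a log2 difference of -0.42 (95% interval -0.77 to -0.07) and an edgeR adjusted p of 0.9293. Its TPM ranges overlapped, from 62.0 to 134 TPM in control and from 66.9 to 91.0 TPM in knockout mice, with an exact permutation p of 0.175. The other 5 differences lay between -0.32 for Cav2 and -0.07 for Sdpr, and each of these intervals included 0. The median over the 6 genes was -0.25 on LFD and -0.19 on HFD, against -0.02 and 0.01 over all genes tested. Averaged over both diets in 1 fit, a contrast added after seeing the data, none of the 6 was called beside 0.0385% of 15574 genes, and Ptrf came nearest (-0.33, unadjusted p 0.01587, edgeR adjusted p 0.5636). The 4 pairwise comparisons share groups, so the diet and genotype values of a gene are not independent of each other.

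The difference between the genotype effects on the 2 diets, which equals the difference between the diet effects in the 2 genotypes, was tested over all 20 libraries. None of the 6 genes was called, and none of 15574 genes was called by edgeR (0%, with 560 at an unadjusted p under 0.05 and 17 called by DESeq2). The values ran from -0.22 for Ehd2 (95% interval -0.85 to 0.41) to 0.32 for Cav2 (-0.44 to 1.09). The call of Cav2 in knockout and not in control mice is therefore not shown to be a difference between the genotypes.

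Several cell types of the pad carry caveolae, and in these bulk libraries fewer cells of a type cannot be told apart from less RNA per cell. The summed TPM of 8 white adipocyte markers rose on HFD, from a range of 16306 to 21770 to one of 20855 to 30100 in control mice (0.33 on the log2 scale, exact permutation p 0.0397) and from 14374 to 19425 to 19442 to 28754 in knockout mice (0.56, exact permutation p 0.00794). Of these 8 markers, 1 and 2 were called higher in control and knockout mice, beside 4.42% and 4.55% of all genes. Their edgeR log2 fold changes ran from -1.20 to 2.10 in control (median 0.20) and from -0.09 to 2.41 in knockout mice (median 0.44). The sum of 8 endothelial markers rose from a range of 137 to 235.5 to one of 225 to 353 in control mice (0.63, exact permutation p 0.0159), with 4 of 8 called higher. In knockout mice it rose from 170.5 to 224 to 207.5 to 342 (0.48, exact permutation p 0.0238), with 1 of 8 called higher. All 8 endothelial log2 fold changes from edgeR were positive in both genotypes, with medians of 0.49 in control and 0.35 in knockout mice. The sum of 8 smooth muscle and pericyte markers rose by 0.77 and 0.69 (exact permutation p 0.00794 in each genotype), from 201 to 442 to 460.4 to 625 TPM and from 266 to 359 to 383 to 651 TPM. In control mice 0 of these 8 passed the edgeR test, and in knockout mice 1 was called higher and 1 lower. Only 3 of the 8 had a positive log2 fold change in each genotype, with medians of -0.14 in control and -0.04 in knockout mice. The mean of Rgs5 alone went from 159.5 to 325.6 TPM in control mice, where the mean sum went from 337 to 549 TPM. In knockout mice Rgs5 went from 134.2 to 304.5 TPM and the mean sum from 313 to 513 TPM. The rise of the sum is therefore not a rise of most of these markers. No marker of the 3 lists was at or near 0 in all libraries. The sums are on the TPM scale, where limma gave a median over all genes of 0.13 in control and 0.08 in knockout mice. The part of these 3 lists in the diet result was not tested.

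Divided by the adipocyte sum of its own library, Ptrf was still higher on HFD in control mice by 0.79 and Prkcdbp by 0.93 on the log2 scale (exact permutation p 0.00794 each). Cav1 and Sdpr were higher by 0.75 and 0.36 (exact permutation p 0.0317 each), and the values of Ehd2 and Cav2 were 0.51 (0.0873) and 0.45 (0.214). In knockout mice the ratio of Ptrf was higher by 0.55 (exact permutation p 0.0238), those of Prkcdbp and Cav1 differed by 0.50 (0.111) and 0.47 (0.0952), and those of Sdpr, Ehd2 and Cav2 differed by -0.0017 (0.992), -0.09 (0.690) and 0.32 (0.270). Divided by the endothelial sum, Prkcdbp was higher by 0.63 in control and 0.59 in knockout mice (exact permutation p 0.00794 and 0.0159), Ptrf by 0.48 and 0.63 (0.0317 and 0.00794) and Cav1 by 0.44 and 0.55 (0.0238 and 0.00794). For Cav2 this ratio differed by 0.14 in control and 0.40 in knockout mice (exact permutation p 0.540 and 0.0317). For Sdpr it differed by 0.05 and 0.08 and for Ehd2 by 0.21 and -0.01, all with an exact permutation p above 0.39. The p-values of ratios and of marker sums are unadjusted. A ratio shows unequal change of the pair it is made of, and does not show which cells carry it. The adipocyte sum averaged 20015 TPM in control mice on LFD, where its markers Lep, Lipe and Plin1 averaged 169, 165.5 and 136 TPM. Most of that sum thus came from other markers of the list. Lep itself went from 169 to 804 TPM in control mice. The skeletal muscle sum was higher in knockout than in control mice on HFD, by 4.80 on the log2 scale (exact permutation p 0.0159), and its part in the genotype values was not tested. Without the libraries rich in it, no caveolae gene was called in either genotype comparison (0.0066% of all genes on HFD and 0.00642% on LFD), and the edgeR log2 differences on HFD were 0.02 for Cav1, 0.22 for Cav2, 0.03 for Ptrf, 0.05 for Sdpr, -0.02 for Prkcdbp and -0.27 for Ehd2. On HFD this kept only knockout replicates 18 and 21. Replicate 21 had the highest Ptrf (250.5 TPM) and Prkcdbp (293.1 TPM) of its group. Leaving out replicate 21 alone gave -0.38 for Ptrf and -0.50 for Prkcdbp, so these values depend on which libraries stay.

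Cav1 has 9 annotated transcripts, and the 2 that carry most of its TPM begin at the starts shown above. Cav1-001, from the first start, had means of 485 TPM on LFD and 1123 TPM on HFD in control and of 453 and 997 TPM in knockout mice. Cav1-002, from the second start, had means of 240 and 358 TPM and of 203 and 334 TPM. The share of Cav1-001 was 57.8 ± 7.22% on LFD and 69.0 ± 7.82% on HFD in control mice (exact permutation p 0.0476) and 62.1 ± 11.2% and 66.2 ± 5.54% in knockout mice (exact permutation p 0.5). Taking 5 transcripts at or near the first start together, a grouping made after seeing the data, gave 62.9% and 72.8% in control (exact permutation p 0.0714) and 66.2% and 70.8% in knockout mice (0.468). Ehd2-201 took 73.4 ± 3.90% of Ehd2 on LFD and 65.3 ± 5.65% on HFD in control mice (exact permutation p 0.0317), and 69.7% and 66.2% in knockout mice (0.508). Ptrf-001 took nearly all of Ptrf, with 98.4% and 99.1% in control and 97.4% and 99.1% in knockout mice (exact permutation p 0.0159 each). Cav2-001 held between 94.9% and 96.5% of Cav2 in all 4 groups, and Sdpr and Prkcdbp have 1 transcript each. These p-values are unadjusted over 16 tests of the most abundant transcripts, to which the grouping added 1 for each of the 4 pairwise comparisons. In none of these tests did the groups separate fully. Shares of transcripts that overlap are estimates of the quantification and not direct counts.

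**Figure D4:**
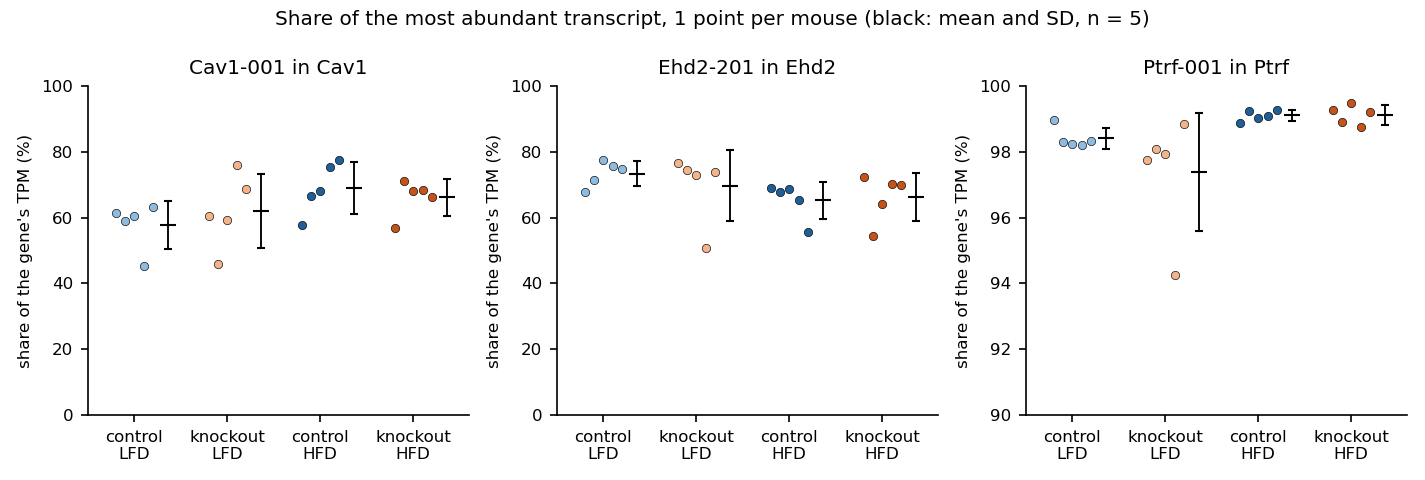
Share in percent (y axes) of the most abundant transcript within its gene for Cav1, Ehd2 and Ptrf, per library and group (x axis), with the mean and SD of each group. The axis of Ptrf begins at 90% and the others at 0. The control shares of Cav1-001 moved from 57.8% to 69.0% between the diets, with overlapping libraries.

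The libraries of a group also differed among themselves in a coordinated way. After subtraction of group means, Prkcdbp and Ehd2 had the highest correlation of 15 pairs over 20 libraries (Pearson r 0.94, permutation p 1e-05, the smallest that 100000 resamples give, Benjamini-Hochberg adjusted 0.00015, and Spearman rho 0.93, permutation p 3e-05, adjusted 0.00045). It was 0.90 without the 2 libraries farthest from the median. Cav1 and Cav2 had r 0.88 and rho 0.80 (permutation p 0.00036 and 0.00077, adjusted 0.00135 and 0.00265, and r 0.77 without those libraries). Cav1 and Prkcdbp had r 0.88 and rho 0.89 (permutation p 8e-05 and 6e-05, adjusted 0.0004 and 0.00045, and r 0.82 without them). The lowest was Cav2 with Ptrf (r 0.43, rho 0.42, permutation p 0.1899 and 0.1083, adjusted 0.1899 and 0.1161, and r 0.35 without them). That of Cav2 with Ehd2 (r 0.48, rho 0.39, permutation p 0.1401 and 0.1437, adjusted 0.1501 and 0.1437) fell to 0.08 without the 2 farthest libraries and so rested on them. Many other genes moved with them as closely. Among 15573 genes ranked by this r with Cav1, Cav2 came at rank 51, Prkcdbp at 58, Ehd2 at 355, Ptrf at 520 and Sdpr at 789. For Prkcdbp, Ehd2 came at rank 3. Libraries share their cell makeup, so these values describe how levels moved together across pads. Prkcdbp and Ehd2 share chromosome 7 but are not neighbours, unlike Cav1 and Cav2.

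Among 15574 genes, those whose log2(TPM + 1) had the highest Pearson r over the 20 libraries with each caveolae gene were ranked as a description, which holds the diet difference as well as the spread within groups. For Cav1 they were Lep (r 0.98), the gene of the adipocyte hormone leptin, Rgs5 (0.97), a pericyte marker, and Adam9 (0.97). Lep and Rgs5 are also in the lists of adipocyte and pericyte markers used above. With group means subtracted these 3 values were 0.92, 0.92 and 0.88. For Cav2 they were Pls3, Vps35 and Scoc (0.97, 0.96 and 0.95), and for Ptrf Sparc, Mest and Prnp (0.97, 0.96 and 0.96). Mest, known to track the expansion of fat, had group means of 61.9 TPM (LFD) and 576 TPM (HFD) in control littermates and of 27.0 and 393 TPM in knockouts. For Sdpr they were Capn2, Nkd1 and Sod3 (0.95, 0.95 and 0.94). For Prkcdbp they were Fam102b, Lep and Hspa12a (0.98, 0.97 and 0.97), and for Ehd2 1110059M19Rik, Rtn4rl1 and Prelp (0.96, 0.96 and 0.95). Lep had group means of 169 and 804 TPM in control and 119.5 and 688 TPM in knockout mice.

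A list of 26 other genes of caveolae and their surroundings was read from the same fits, with 24 tested and Cav3 and Pacsin1 too low. In control mice 4 of the 24 were called higher and 2 lower on HFD, beside 4.42% of all genes called higher and 4.9% called lower, with a median log2 fold change of 0.19 beside -0.04 over all genes. Ehd3, a relative of Ehd2, had 6.52 ± 2.81 TPM on LFD and 14.8 ± 3.75 TPM on HFD (log2 fold change 1.04, SE 0.273, edgeR adjusted p 0.0529). Flot1 and Flot2, which form flat membrane domains of their own, rose by 0.81 (adjusted p 0.02306) and 0.44 (0.05338), and Mgll, the monoglyceride lipase, by 0.61 (0.08649). Dnm1, a dynamin that severs membrane necks, was called lower (-0.92, adjusted p 0.01355), as was Ror1, a receptor known as a scaffold for cavin-1 and caveolin-1 (-0.91, 0.04126).

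In knockout mice 1 gene of this list was called higher and 3 lower, beside 4.55% and 4.85% of all genes, so that 1 of 24 lay near the share of all genes called higher. The list had a median of 0.21 beside 0.00 over all genes. Ehd3 went from 6.31 ± 0.5002 to 13.4 ± 4.23 TPM (log2 fold change 0.99, SE 0.200, edgeR adjusted p 0.01584). The lower ones were Dnm3 (-0.78, adjusted p 0.01611), Ror1 (-0.72, 0.08472) and Insr, the insulin receptor (-0.54, 0.03965). Values for control and knockout mice side by side were 0.30 and 0.33 for Pacsin2, a membrane-bending protein of the caveolar neck, 0.19 and 0.31 for Ehd1, 0.08 and 0.15 for Ehd4 and 0.20 and 0.27 for Dnm2, the widely expressed dynamin. None of these 4 was called in either genotype. The muscle forms were scarce, with Cav3 at no more than 0.575 TPM in any library and Murc (cavin-4) highest in control LFD replicate 5, at 3.68 TPM, the library with the highest sum of muscle fibre markers. No gene of the list was called between genotypes on either diet, nor in the difference between diets.

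**Figure D5:**
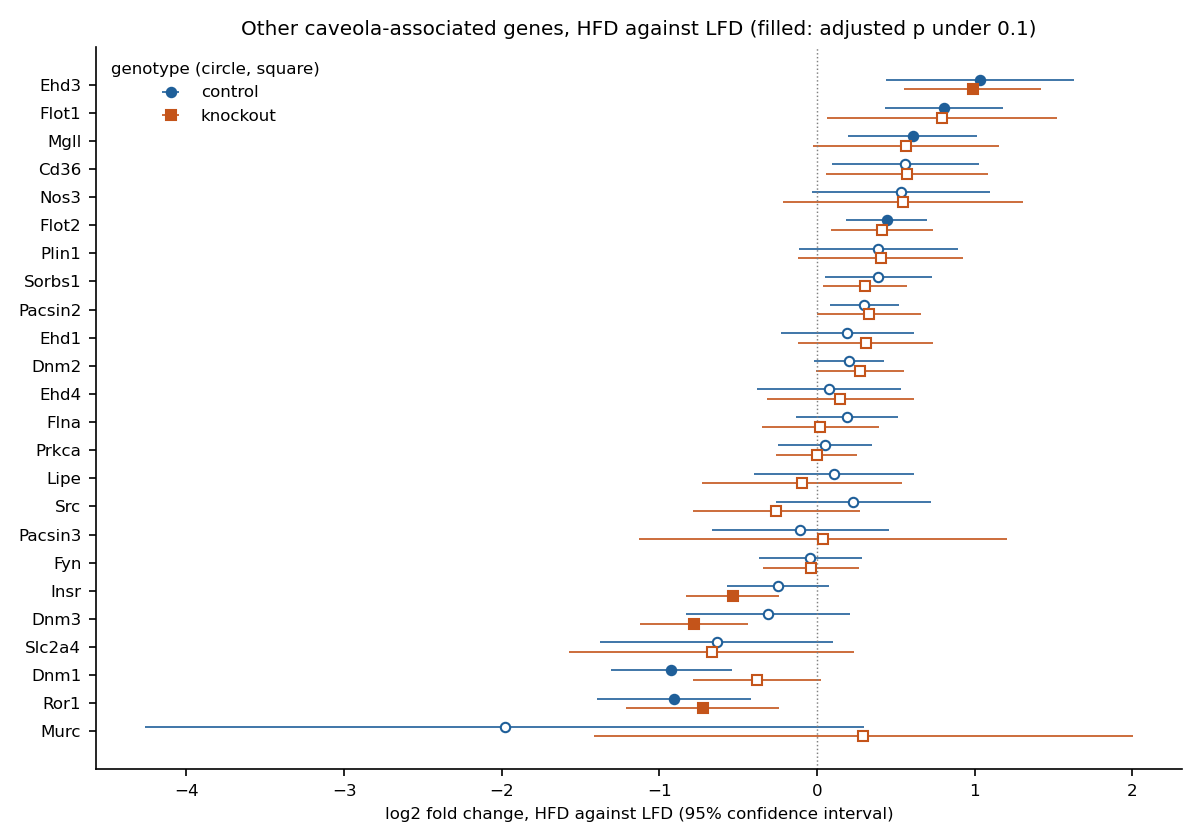
Log2 fold change between HFD and LFD (x axis) with 95% intervals for the tested genes of the list of caveola-associated genes in control and knockout mice, with called genes filled. Ehd3 was called higher in both genotypes and Ror1 called lower in both.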

How the data were processed

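RNA of iWAT from 20 mice was sequenced as paired reads from stranded libraries depleted of ribosomal RNA. The submitters' processing notes name STAR 2.5.3 and Salmon 0.13.1. The estimated counts per transcript were made by the authors with Salmon on Ensembl transcripts of NCBIM37 and deposited without normalization between libraries. The TPM values come from the same run of the authors and are scaled to a fixed total in each library. Whether the alignment filter of the methods was applied to them is not given in the sources used here. Salmon divides reads shared by overlapping transcripts by estimate, so transcript shares are less certain than gene sums. The protocol keeps the strand.

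Gene sums were made with GENCODE vM1, which held 94334 of 96533 transcripts (97.7%). The rest took 0.377% to 0.581% of each library. Gene sums were rounded and tested with edgeR's quasi-likelihood test (edgeR 4.0.16, R 4.3.3, TMM scaling) on genes averaging 0.5 TPM or more in the compared libraries. A Benjamini-Hochberg adjusted p under 0.1 over all genes tested was a call. Only the limit of 0.1 is that of the study's methods, which applied it to DESeq2. Pairwise comparisons used the 2 groups compared, and the difference of genotype effects all 4. Total estimated counts of 54605101 to 92387737 per library make counting error small beside the spread between mice.

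Two-sided exact permutation tests went through all 252 assignments of 5 libraries against 5. They used log2(TPM + 1) for genes and marker sums, the plain log2 of the ratio for ratios and percentages for transcript shares. Correlations were tested by permutation within groups with 100000 resamples (scipy 1.17.1, Python 3.11.15). Alternatives were no filter, RLE size factors, offsets for transcript length, DESeq2 1.42.0, limma 3.58.1 on log2(TPM + 1) and log2(TPM + 0.1), 1 fit of all groups and each replicate left out. In data simulated for the diet comparison in control mice (15030 genes, 200 changed), edgeR called 51% of genes changed by a log2 fold of 1 and 91% of those changed by 2, with 13 unchanged genes called.

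The genes named are the 6 caveolae genes, called genes of a list of 26 caveola-associated genes with Cav3, Murc, Pacsin2, Ehd1, Ehd4 and Dnm2 in any case, the 3 genes most correlated with each of the 6, and Tmem120a. Marker lists covered white adipocytes, endothelium, smooth muscle and pericytes, skeletal muscle fibres, fat progenitors, macrophages, lymphocytes and epithelium, of which 7 of 8 epithelial genes were in the table. Genes and lists were chosen with earlier results of these data known. Separate mice are stated, but the labels give no batch.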

Additional observations from a re-analysis of the deposited data

Results flagged for a closer look

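In 72 groups of 5 libraries, 7 held 1 library far from the other 4, and chance alone flags about 1 in 20 groups. The summed TPM of muscle fibre markers was 2718 in control LFD replicate 5, against 6.13 to 176 in the other 4, and 41.4 in control HFD replicate 12, against 6.23 to 10.5. The share of Cav1-001 was 45.1% in control LFD replicate 4, against 58.9% to 63.1%, and that library also had the lowest TPM of Cav1, Cav2, Ptrf, Sdpr, Prkcdbp and Ehd2 in its group. The share of Ptrf-001 was 98.98% in control LFD replicate 1, against 98.2% to 98.3%, and 94.3% in knockout LFD replicate 9, against 97.8% to 98.9%. Knockout LFD replicate 9 also had the lowest share of Ehd2-201 in its group, at 50.7% against 72.9% to 76.7%, and control HFD replicate 15 had 55.6% against 65.3% to 69.0%. The cause of these values was not tested.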

How the results depend on the processing

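No paired analysis was possible because the groups share no replicate numbers. The diet log2 fold changes of all 6 caveolae genes stayed positive in every alternative tried, and in the genotype comparisons and their difference no caveolae gene was called in any of them. Leaving out 1 library at a time gave 2 to 6 of the 6 genes called for diet in control mice (3 with all libraries) and 3 to 5 in knockout mice (4). The other counts were as follows, and the cause of each change was not tested.

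For diet in control mice, DESeq2 called 5 of the 6 genes, DESeq2 with length offsets 5, limma 6 with either pseudocount, 1 fit of all 4 groups 5 and the mean over both genotypes 6. In knockout mice 0 were called without the libraries rich in muscle fibre markers, which leaves fewer samples. Over all genes, the 1427 calls for diet in control mice became 2205 and 2056 with DESeq2 without and with length offsets, 2139 and 2148 with limma at pseudocounts of 1 and 0.1, 1380 in 1 fit of all groups, 868 without the muscle-rich libraries and 3923 for the mean over both genotypes, and 780 to 1845 with 1 library left out. The 1476 calls in knockout mice became 2247, 2 and 3923 with DESeq2, without the muscle-rich libraries and for the mean, and 753 to 1355 with 1 library left out. For genotype on HFD, 1 call became 26 with no filter, 5 with length offsets, 100 and 105 with DESeq2 without and with offsets, 3 and 4 with limma at pseudocounts of 1 and 0.1, 3 in 1 fit of all groups and 6 for the mean over both diets. It became 1 to 58 with 1 library left out, 58 without knockout HFD replicate 21. For genotype on LFD, 1 call became 17 and 17 with DESeq2, 2 and 2 with limma, 2 in 1 fit and 6 for the mean, and 1 to 2 with 1 library left out. For the difference of genotype effects, 0 calls became 17 and 18 with DESeq2 and stayed at 0 with any library left out.

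Some genotype values of the 6 genes changed sign between settings, and none of those values was called. On HFD the fit without the muscle-rich libraries kept only knockout replicates 18 and 21. Its log2 fold change was 0.022 for Cav1, 0.030 for Ptrf and 0.051 for Sdpr. For Cav2 on HFD it was -0.0043 with length offsets, -0.025 and -0.025 with limma, -0.16 for the mean over both diets, and -0.14 to 0.15 with 1 library left out. On LFD limma gave 0.038 and 0.038 for Sdpr and 0.017 and 0.018 for Ehd2, and the fit without the muscle-rich libraries 0.018 for Sdpr, 0.0057 for Prkcdbp and 0.075 for Ehd2. With 1 library left out, values on LFD ran from -0.46 to 0.019 for Cav2, -0.13 to 0.020 for Sdpr and -0.27 to 0.024 for Ehd2. On the TPM scale on LFD, TMM factors gave -0.048 for Sdpr and -0.068 for Ehd2. With 1 library left out, the TPM differences ran from -0.34 to 0.048 for Cav1, -0.33 to 0.10 for Cav2, -0.044 to 0.13 for Sdpr and -0.22 to 0.15 for Ehd2 on LFD, and from -0.15 to 0.13 for Cav2 on HFD. The difference of genotype effects was -0.048 and -0.048 with limma for Cav1, -0.0038 and -0.0028 for Ptrf, and 0.021 for Sdpr without the muscle-rich libraries. It ran from -0.11 to 0.18 for Cav1, -0.018 to 0.47 for Cav2, -0.12 to 0.033 for Sdpr and -0.26 to 0.12 for Prkcdbp with 1 library left out.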

Other observations

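The other marker lists moved as follows beside the caveolae genes. The sum of 8 fat progenitor markers differed by -0.00075 on the log2 scale between diets in control mice (exact permutation p 1) and was higher on HFD by 0.47 in knockout mice (exact permutation p 0.0159). The sums of macrophage, lymphocyte and epithelial markers gave exact permutation p-values between 0.151 and 0.603 in the diet comparisons. Of the 8 muscle fibre markers, 7 were called lower on HFD in control mice, where control LFD replicate 5 held the highest sum, beside 4.9% of all 15311 genes called lower.

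The mean share of Sdpr in the set was lower on HFD in both genotypes, with overlapping ranges, and this was not tested. Sdpr took 11.3 ± 2.54% of the summed TPM of the 6 genes in control and 12.4 ± 1.59% in knockout mice on LFD. On HFD it took 9.06 ± 0.92% and 9.60 ± 1.395% in the same order.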
